A study of Mus musculus with 9 samples.

Results

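The respiratory chain and ATP synthase were described at the RNA level through 106 of the 51810 genes in the table, in valvular interstitial cells (VICs) of the mouse, grown in culture. The members were chosen by symbol and not by a cut on measured values, although earlier results of these data were known. They start with Nduf, Uqcr, Cox4 to Cox8, Atp5, mt-Nd, mt-Co, mt-Cytb or mt-Atp, or are Sdha, Sdhb, Sdhc or Sdhd, and 7 further symbols with the pseudogene mark -ps were dropped. Of the 106 genes, 93 are nuclear and 13 are the mRNA genes of the mitochondrial genome. VICs are the fibroblast-like cells of the heart valve leaflets, and here they came from both the aortic and the mitral valve of C57BL/6J animals. All cells grew in serum-containing medium with insulin, EGF and basic FGF. The Control cells received buffer, the LDL cells native low-density lipoprotein at 50 ug/mL, and the oxLDL cells oxidised LDL at 50 ug/mL, each for 24 h. Each group had 3 libraries. The labels give no genetic change for any group, call the Control cells untreated, and do not say whether the libraries of a group came from separate cultures or animals. The p-values therefore measure the spread between these libraries, which may be technical.

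Complexes I and II pass electrons from NADH and succinate to coenzyme Q, complex III passes them on to cytochrome c, and complex IV hands them to oxygen. Complexes I, III and IV pump protons out of the mitochondrial matrix, and the ATP synthase makes ATP as the protons return. Complex II is made entirely of nuclear subunits, while the other complexes combine nuclear subunits with a few core subunits made inside the mitochondrion from its own genome. Most complex I subunits are accessory subunits around a core that carries out the electron transfer.

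Values are TPM, in which reads are corrected for gene length and scaled to 1 total per library, so levels of different genes can be compared. TPM keeps no depth, and the number of reads behind each value is unknown. Means are ± SD over the n = 3 libraries of a group. Differences between groups are on the log2(TPM + 1) scale and were tested with limma over the 13495 genes that averaged 1 TPM or more. The markers of valve interstitial cells summed to between 11500 and 13900 TPM, with 9 of 9 tested and Vim the highest at 5580 TPM. Of 8 cardiomyocyte markers, 7 had a mean under 1 TPM, and the list summed to 10 to 64.5 TPM, mostly Tnnt2 at 24.3 TPM. The sums were 64.8 to 92 TPM for smooth muscle markers, 116 to 315 TPM for endothelial markers and 2.74 to 19.1 TPM for melanocyte markers. Macrophage and leukocyte markers summed to 210 to 440 TPM in Control, 211 to 657 TPM in LDL and 92.9 to 654 TPM in oxLDL libraries. No marker was listed at 0 in all libraries, and the part of these other cells in the results was not tested.

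The nuclear members made up a steady 1.83 to 2.05% of all transcripts. Their summed level was 20130, 20335 and 18987 TPM in the Control libraries, 20501, 19775 and 18916 TPM with LDL, and 20270, 19353 and 18345 TPM with oxLDL. The group means were 19818 ± 727, 19730 ± 793 and 19323 ± 963 TPM, closer to each other than the libraries of 1 group were. In bulk samples, fewer cells of a type and less RNA per cell cannot be told apart. The nuclear members also varied little between libraries of a group. The median coefficient of variation within groups was 6.31% over the 89 nuclear members tested, against 11.5% over all genes tested. Among genes that averaged 20 TPM or more it was 5.99% for 79 nuclear members and 8.52% for all 6513 genes.

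The ATP synthase had the largest summed nuclear level, 6509 to 7189 TPM over 17 genes. Its catalytic beta subunit, Atp5b, was the highest nuclear member by far, at 1630 ± 61.8 TPM (SD over the 9 libraries). Atp5g3, a gene for the proton-carrying c subunit, followed at 675 TPM, and Atp5a1, the alpha subunit, at 509 TPM. The ranges of these 3 genes over the 9 libraries did not overlap, while Atp5a1 overlapped with the next gene, Atp5e. Atp5s and Atp5sl match the prefix but are not structural subunits of the enzyme, and they were the lowest at 10.1 and 9.83 TPM. The lowest structural subunit, Atp5d, had 250 TPM.

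Complex IV genes summed to 4608 to 5267 TPM over 20 genes. Cox8a at 615 TPM, Cox6a1 at 603 TPM and Cox4i1 at 571 TPM led, and each overlapped with its neighbour in this order. Several complex IV subunits exist in a common form and in a form known from heart, skeletal muscle, testis or other tissues. The prefix Cox7 also takes in Cox7a2l, a factor of respiratory supercomplexes, at group means of 249 ± 23.6 TPM in Control, 246 ± 17.9 TPM with LDL and 241 ± 22.3 TPM with oxLDL. Ndufa4 and Ndufa4l2 were counted with complex IV, where the NDUFA4 protein is now placed.

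Complex I genes summed to 4633 to 5168 TPM over 36 genes, with a median level of 141 TPM. Ndufa2 and Ndufb8, both accessory subunits, stood at the top with 239 TPM each, and their ranges overlapped. Ndufa11, an accessory subunit of the membrane arm, was the lowest at 27.7 ± 1.21 TPM. The 8 complex I assembly factors named Ndufaf, which help to build the complex and are not part of it, were low. Their levels ran from 35.9 TPM for Ndufaf2 to 12.7 TPM for Ndufaf6.

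Complex III genes summed to 1869 to 2165 TPM over 8 genes. They ran from Uqcrh, the hinge subunit, at 437 TPM to Uqcrfs1, the Rieske iron-sulphur protein, at 114 TPM. Complex II had the lowest sum of the 5 complexes, 547 to 579 TPM over 4 genes. Its flavoprotein Sdha had 171 ± 10.7 TPM and its membrane anchor Sdhd 159 ± 6.66 TPM, with overlapping ranges. The iron-sulphur subunit Sdhb had 143 ± 7.52 TPM, overlapping with Sdhd but not with the anchor Sdhc, at 92.3 ± 6.73 TPM.

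**Figure D1:**
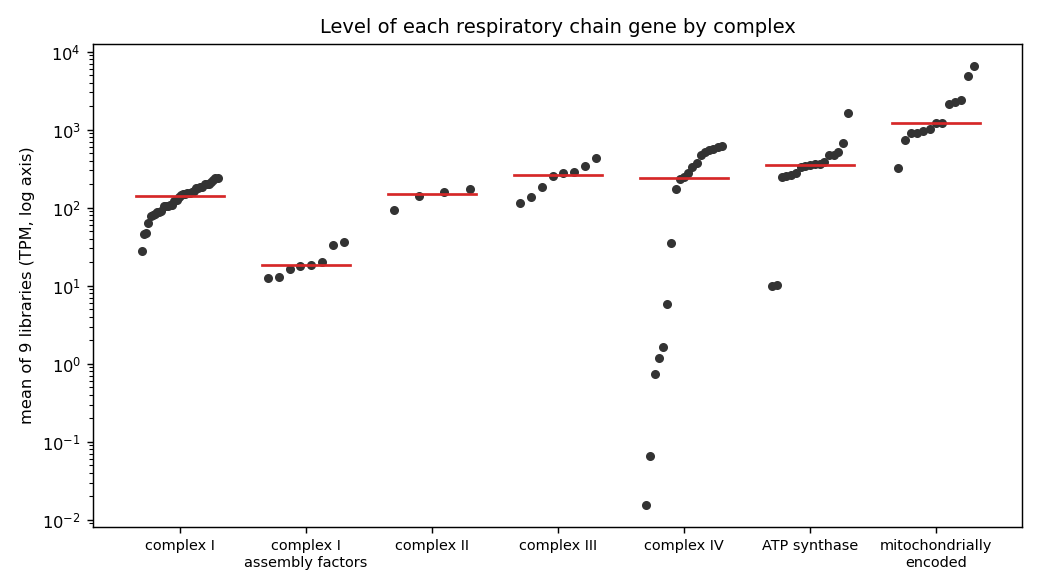
Mean TPM over the 9 libraries of each member on a log axis, by complex, 1 point per gene. Atp5b at 1630 TPM is the highest nuclear gene, the assembly factors lie between 12.7 and 35.9 TPM, and Cox8c, at 0 in all libraries, is left off the log axis.

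The paired forms of complex IV subunits showed which version these cells transcribe. Cox4i2, the form of subunit 4 known from lung and from low oxygen, made up 4.25 to 9.12% of the pair with Cox4i1. Its level was 29.4, 52.5 and 27.6 TPM in Control, 29.3, 55 and 30.9 TPM with LDL, and 27.4, 33.3 and 32.5 TPM with oxLDL. The libraries numbered 2 of the Control and LDL groups were the high ones, and the groups overlapped. The other tissue forms were nearly absent. The muscle form Cox6a2 made up 0.0264 to 0.308% of its pair with Cox6a1, and the heart and muscle form Cox7a1 0.216 to 0.704% of its pair with Cox7a2. The testis form Cox6b2 made up 0.197 to 0.517% of its pair with Cox6b1, and Cox8b, a heart and muscle form, 0 to 0.0571% of its pair with Cox8a. Ndufa4l2, a relative of Ndufa4 known to respond to low oxygen, made up 0.753 to 2.14% of the pair. It was listed at 4.27, 7 and 3.47 TPM in Control, 3.74, 8.37 and 9.96 TPM with LDL, and 4.13, 4.01 and 7.98 TPM with oxLDL, with overlapping groups. Cox6a2, Cox7b2, Cox8b and Cox8c had a mean under 1 TPM and were the only members not tested. Cox7b2 was listed above 0 in 1 library, at 0.14 TPM, and Cox8c in none.

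Native LDL left the level of nearly every nuclear respiratory chain gene within a narrow interval of the Control level. None of the 89 nuclear members passed an adjusted p of 0.05 in limma, where 0.333% of all genes tested passed. Unadjusted, 2 members (Ndufa6 and Ndufaf6) had a p under 0.05, both higher with LDL, against 6.65% of all genes. With library number fitted as a block in limma, 2 members were higher and 1 lower at that level. Of the 13495 genes tested, 885 were higher and 888 lower. The mean of log2(TPM + 1) was higher with LDL for 44 members and lower for 45. The median difference on that scale was 0.00, as over all genes. The 95% interval of the difference lay within 0.5 log2 units of no change for 82 of the 89 members, against 68.4% of all genes. The intervals were also narrower for the nuclear members, with a median half-width of 0.17 log2 units against 0.28 over all genes. These comparisons of intervals, and those given below, were not matched for level. The nuclear members had a median level of 160 TPM, while the genes tested include all that averaged 1 TPM or more.

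By complex, the differences of the ATP synthase genes with LDL lay between -0.09 for Atp5j2 and 0.10 for Atp5sl on the log2(TPM + 1) scale. The complex II differences were 0.05 for Sdha, -0.03 for Sdhb, 0.07 for Sdhc and -0.05 for Sdhd. Those of complex III lay between -0.03 for Uqcrq and 0.07 for Uqcrfs1. In complex IV they ran from -0.37 for Cox7a1 to 0.46 for Ndufa4l2, both low genes with wide intervals of -1.03 to 0.29 and of -0.36 to 1.27. In complex I they ran from -0.18 for Ndufs8, an iron-sulphur core subunit, to 0.39 for Ndufa6.

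Groups that did not overlap were few. With LDL all 3 libraries lay above all 3 Control libraries for Ndufa6, Ndufaf6 and Uqcrfs1, while 5.61% of all genes did so. They lay below Control for Ndufb8 alone, against 5.06% of all genes. Uqcrfs1 had 115, 114 and 113 TPM in Control, 120, 120 and 118 TPM with LDL, and 114, 106 and 107 TPM with oxLDL. The LDL libraries were the highest, yet the difference from Control was 0.07 (95% interval -0.05 to 0.19, limma adjusted p = 0.99). Ndufb8 had 252, 245 and 253 TPM in Control, 229, 238 and 231 TPM with LDL, and 239, 244 and 217 TPM with oxLDL. Its difference with LDL was -0.11 (95% interval -0.24 to 0.03, limma adjusted p = 0.92), and Gm20538 overlaps it on the chromosome, so their reads may not be told apart.

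Ndufa6 was the nuclear member with the smallest p when LDL was compared with Control and when oxLDL was compared with LDL. It encodes an accessory subunit of complex I from the LYR protein family, which binds the acyl carrier protein encoded by Ndufab1, and lies at chr15:82350140-82354322 on the minus strand (GRCm38) with no overlapping gene. Its level was 147, 131 and 129 TPM in Control, 191, 171 and 171 TPM with LDL, and 150, 119 and 128 TPM with oxLDL. Every LDL library lay above every library of the other groups, which overlapped each other. The means were 136 ± 10.2, 178 ± 11.2 and 133 ± 15.8 TPM.

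For LDL against Control, Ndufa6 differed by 0.39 log2 units (SE 0.1, 95% interval 0.17 to 0.61), 1.31-fold, with a limma adjusted p of 0.25. The ratios within libraries numbered alike were 1.29, 1.3 and 1.33. In limma with library number fitted as a block (the replicate block), the adjusted p was 0.019, and Ndufa6 was the 1 nuclear member called, where 0.852% of all genes were. For oxLDL against LDL it differed by -0.42 log2 units (95% interval -0.64 to -0.21), with a limma adjusted p of 0.44 and of 0.029 with the block. Ndufa6 was again the 1 nuclear member called with the block, where 0.259% of all genes were, and the ratios by number were 0.787, 0.699 and 0.749. The call with the block was lost when the libraries of any 1 number were left out, with adjusted p between 0.14 and 0.29 for LDL versus Control and between 0.15 and 0.44 for oxLDL versus LDL. The log2 differences then stayed between 0.37 and 0.40, and between -0.46 and -0.38. For oxLDL against Control the difference was -0.04 (95% interval -0.26 to 0.18, limma adjusted p = 1).

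Among the neighbours of Ndufa6 on the chromosome, 2 are described. Smdt1, which encodes a subunit of the mitochondrial calcium uniporter, lies 1049 bases away on the other strand. It had 227, 200 and 209 TPM in Control, 209, 208 and 189 TPM with LDL, and 211, 185 and 179 TPM with oxLDL, with overlapping groups. The cytochrome P450 gene Cyp2d22, 16205 bases away, was low, at 3.88, 3.78 and 3.4 TPM in Control, 4.83, 5.36 and 5.61 TPM with LDL, and 2.89, 2.62 and 4.59 TPM with oxLDL. Its LDL libraries were also the highest, by 0.42 log2 units over Control (95% interval 0.04 to 0.79, limma adjusted p = 0.63).

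The promoter of Ndufa6 is shown because it is the 1 member called in any fit. The 300 bases of the RefSeq table (GRCm38.p6, chr15:82354242-82354541, minus strand) run from 250 bases before to 50 bases after the gene's start. The capitals mark GCATGCGC, the core of the sites of NRF1, a transcription factor of nuclear respiratory genes, and GGGCGG, the SP1 box.
Ndufa6 promoter: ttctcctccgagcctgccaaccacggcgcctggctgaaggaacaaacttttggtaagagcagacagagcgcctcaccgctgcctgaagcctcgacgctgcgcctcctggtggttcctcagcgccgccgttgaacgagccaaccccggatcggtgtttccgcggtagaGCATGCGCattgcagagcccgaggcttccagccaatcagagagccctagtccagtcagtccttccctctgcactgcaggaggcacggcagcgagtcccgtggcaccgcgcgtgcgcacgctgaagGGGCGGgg

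The same letters were counted on both strands in the 79 promoters of the 74 nuclear members that the table holds. GCATGCGC was in 12 of 79 (15.2%), against 2.71% of all 32851 promoters and 5.07% of the 12421 promoters of tested genes. AAGATGGCG, the core of YY1 sites, was in 8 (10.1%), against 1.4% of all and 2.94% of tested promoters. CCGGAAG, a core of ETS factor sites, was in 18 (22.8%), against 8.86 and 17.3%. GGGCGG was in 34 (43.0%), against 35.7% of all promoters and 62.8% of tested ones. These matches are a description, and binding was not measured.

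Oxidised LDL also left the nuclear members near the Control level. None of the 89 passed limma's adjusted threshold, where 0.0148% of all genes did, and none did so when the block was fitted, where 0.126% of all genes did. Without the block, Ndufaf6 was the 1 member with an unadjusted limma p under 0.05, against 3.86% of all genes. With the block, 1 member was higher and 5 were lower at that level, against 9.08% of all genes. The mean of log2(TPM + 1) was lower with oxLDL for 61 members and higher for 28. The median difference was -0.03 log2 units, against 0.00 over all genes. The 95% interval lay within 0.5 log2 units of no change for 84 of 89 members, against 71.1% of all genes, so larger changes lay outside the intervals of most members.

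All 7 nuclear members whose oxLDL libraries lay below every Control library belong to complex I, namely Ndufa1, Ndufb3, Ndufb8, Ndufb10, Ndufc2, Ndufs8 and Ndufv2. They are 7 of 89 members, against 3.83% of all genes, and complex I holds 36 of the 89. The differences were small, and limma's adjusted p was 1 for each. Ndufa1, a small membrane-arm subunit, had 179, 190 and 185 TPM in Control, 193, 182 and 186 TPM with LDL, and 177, 166 and 164 TPM with oxLDL. Its oxLDL libraries were the lowest, by -0.12 log2 units from Control (95% interval -0.26 to 0.01). Ndufb10, another membrane-arm subunit, had 159, 167 and 165 TPM in Control, 164, 161 and 163 TPM with LDL, and 151, 156 and 155 TPM with oxLDL. The difference from Control was -0.08 (95% interval -0.20 to 0.03). Ndufs8 had 70.5, 67.2 and 68.6 TPM in Control and 67.1, 64.2 and 58.7 TPM with oxLDL, and Ndufv2, a core subunit of the NADH-oxidising end, 105, 116 and 105 against 102, 101 and 101 TPM. The gaps between the nearest libraries of the 2 groups were narrow in both. Ndufb5, outside this group because its ranges overlapped, had the smallest unadjusted p of complex I at -0.19 log2 units (95% interval -0.38 to 0.01, limma adjusted p = 1). Summed, the 36 complex I genes were at 4961 ± 186 TPM in Control, 5016 ± 143 TPM with LDL and 4822 ± 194 TPM with oxLDL, with overlapping ranges.

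Ndufaf6, an assembly factor of complex I, was the 1 nuclear member with all oxLDL libraries above Control, against 3.5% of all genes. It had 8.72, 11.9 and 11.1 TPM in Control, 12.4, 14 and 13.9 TPM with LDL, and 13.5, 12.6 and 16.5 TPM with oxLDL. Both lipoprotein groups lay above Control and overlapped each other. It differed by 0.33 log2 units with LDL (95% interval 0.02 to 0.63, limma adjusted p = 0.68) and by 0.39 with oxLDL (95% interval 0.09 to 0.70, limma adjusted p = 1), and the 2 comparisons share the Control libraries. The other 7 assembly factors differed by less, between -0.03 and 0.15 log2 units with LDL and between -0.04 and 0.16 with oxLDL.

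Compared directly, oxLDL and LDL libraries differed little in nuclear members. None of the 89 passed the adjusted threshold, where 0.104% of all genes did. Unadjusted p was under 0.05 for Ndufa1, Ndufa6 and Uqcrfs1, all lower with oxLDL, against 3.91% of all genes. With the block in limma, 0 members were higher and 6 lower at that level. Of the 13495 genes tested, 547 were higher and 601 lower. The mean of log2(TPM + 1) was lower with oxLDL for 64 members and higher for 25. The median difference was -0.03 log2 units, against 0.00 over all genes. The 95% interval lay within 0.5 log2 units of no change for 84 of 89 members, against 71.4% of all genes. All oxLDL libraries lay below all LDL libraries for 7 members, namely Atp5j, Ndufa1, Ndufa6, Ndufb5, Ndufb10, Ndufv3 and Uqcrfs1, where 4.2% of all genes did. None lay above, where 4.11% of all genes did. Ndufa1 differed by -0.14 (95% interval -0.27 to -0.01) and Uqcrfs1 by -0.13 (95% interval -0.26 to -0.01), both with a limma adjusted p of 1.

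**Figure D2:**
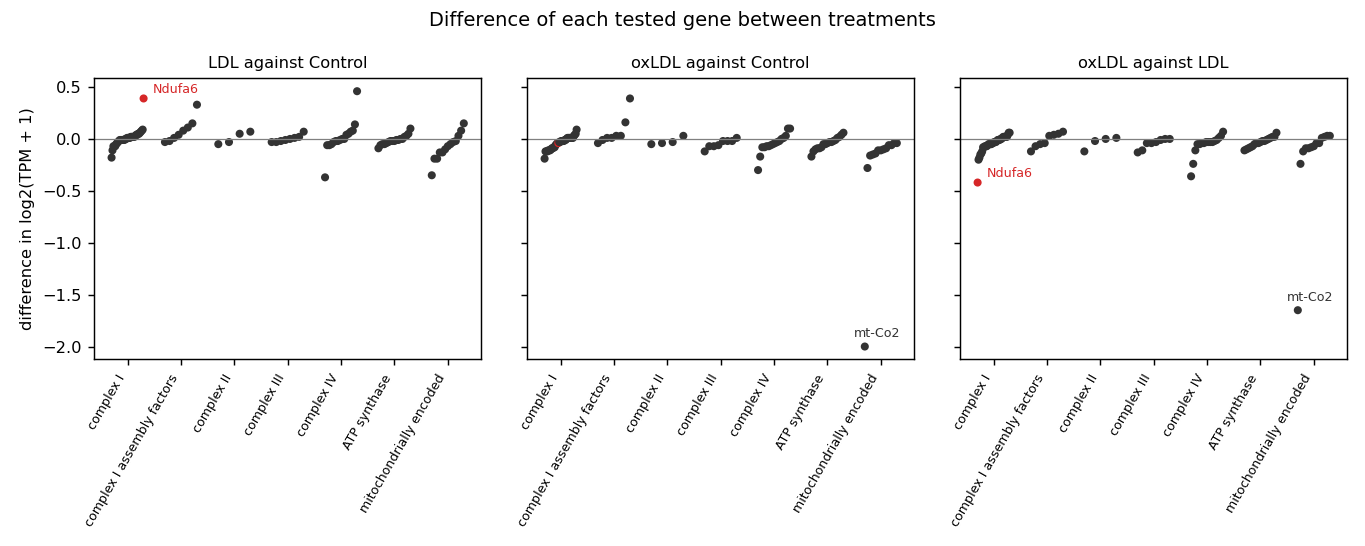
Log2 difference of each tested member in the 3 comparisons, with 1 panel per comparison and 1 point per gene, placed by complex, with Ndufa6 in red. Ndufa6 stands at 0.39 between LDL and Control and -0.42 between oxLDL and LDL, and mt-Co2 is far from the other members at -2.00 for oxLDL against Control.

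**Figure D3:**
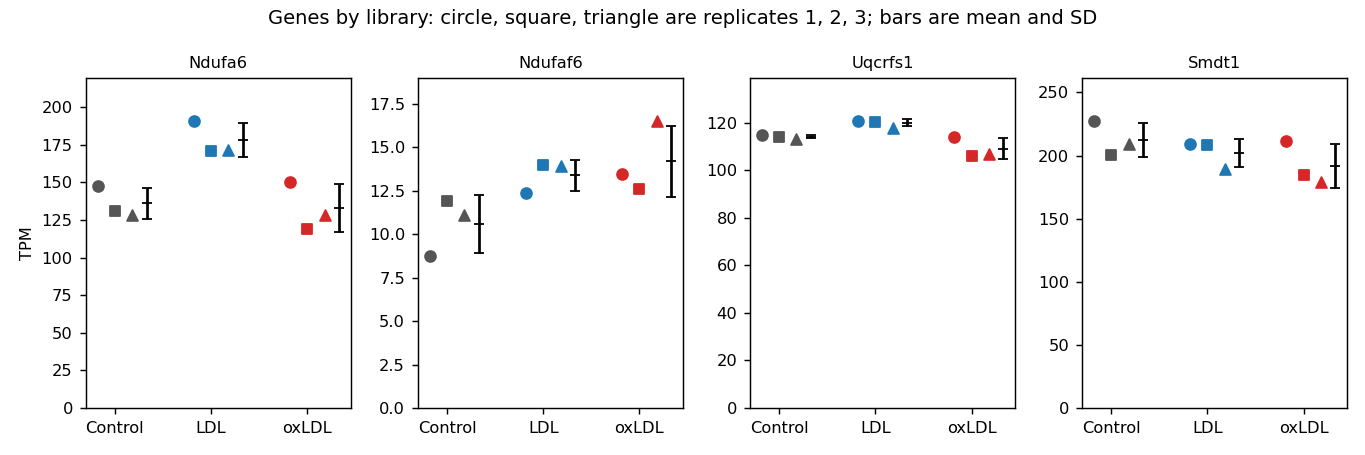
TPM of the nuclear members Ndufa6, Ndufaf6 and Uqcrfs1 and of Smdt1, the neighbour of Ndufa6, in each library by group, with 1 point per library and a bar for the group mean and SD. The 3 LDL libraries of Ndufa6, at 171 to 191 TPM, lie above all others, and the libraries of Ndufaf6 in both lipoprotein groups lie above Control.

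The mRNAs of the mitochondrial genome differed more between libraries than between treatments. Their summed level was 19527, 28358 and 31995 TPM in Control, 19773, 25099 and 29729 TPM with LDL, and 16870, 25518 and 31886 TPM with oxLDL. The library numbered 1 was the lowest and the library numbered 3 the highest in every group, and the highest sum was 1.9 times the lowest. The group means, 26627 ± 6412, 24867 ± 4982 and 24758 ± 7537 TPM, differed by less than the SD of any group. The ratio of LDL to Control was 1.01, 0.885 and 0.929 within libraries numbered alike, and that of oxLDL to Control 0.864, 0.9 and 0.997. The ratio of oxLDL to LDL was 0.853, 1.02 and 1.07.

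None of the 13 mitochondrial mRNAs was called by limma in any comparison, with or without the replicate block. The largest share of all genes called was 0.333% without the block and 0.852% with it, both for LDL versus Control. The absence of calls among 13 genes therefore does not set them apart. Without the block, none of the 13 had an unadjusted limma p under 0.05, where 3.86 to 6.65% of all genes did. With the block mt-Co2 alone had such a p, lower for oxLDL against Control, where 9.08% of all genes did. Its difference turns on a library in which it was listed at 0. The median difference was -0.07 log2 units between LDL and Control, -0.11 between oxLDL and Control, and -0.07 between oxLDL and LDL. The mean of log2(TPM + 1) was lower for 10, 13 and 9 of the 13 genes in the same order. The precision was low in the fit without the block, with a median half-width of the 95% interval of 0.66 log2 units. In that fit 1 of 13 genes had its interval within 0.5 log2 units of no change in each comparison. Differences between library numbers count as spread there, and no interval is given for the fit with the block. For mt-Nd1, LDL against Control, the unadjusted limma p was 0.68 without the block and 0.077 with it. Within groups their median coefficient of variation was 29.6%, against 6.31% for nuclear members.

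**Figure D4:**
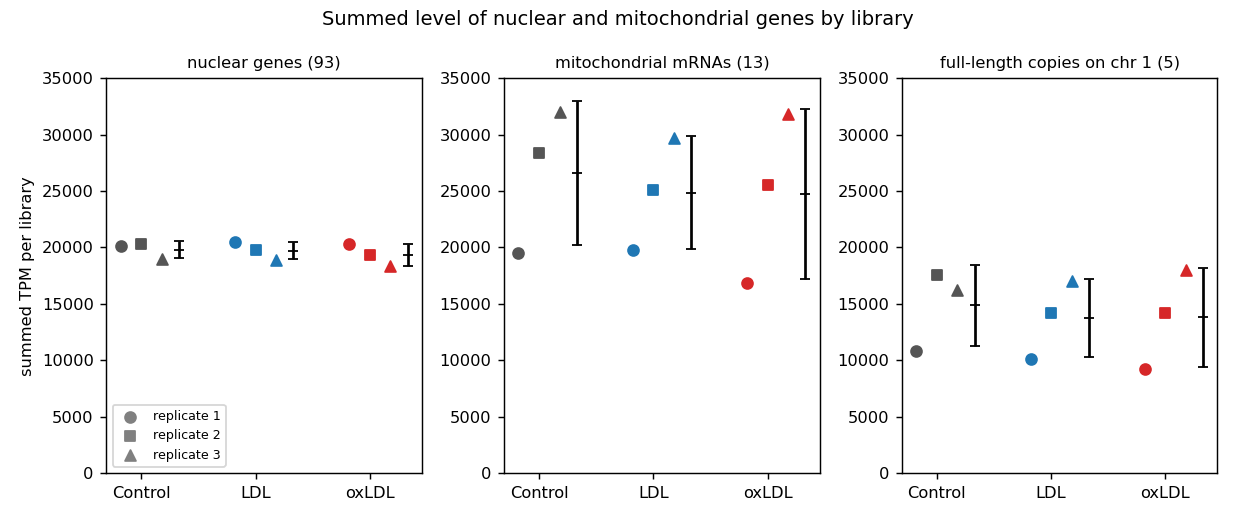
Summed TPM of the 93 nuclear and the 13 mitochondrially encoded members in each library, by group and library number. The nuclear sums stay between 18345 and 20501 TPM, while the mitochondrial sums run from 16870 TPM in oxLDL library 1 to 31995 TPM in Control library 3.

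The libraries numbered 1 stood apart gene by gene. All 3 of them lay below the other 6 libraries for 10 of the 13 mitochondrial mRNAs, as for 13.2% of all genes tested. Mean levels in libraries numbered 1 against the others were 3450 and 5500 TPM for mt-Co1, the catalytic subunit of complex IV, and 1690 and 2700 TPM for mt-Cytb, the mitochondrial subunit of complex III. They were 4480 and 7570 TPM for mt-Atp8 and 427 and 1310 TPM for mt-Atp6, both subunits of the ATP synthase. Among the complex I subunits they were 1560 and 2630 TPM for mt-Nd1, 635 and 1120 TPM for mt-Nd2, 808 and 1420 TPM for mt-Nd4, 524 and 841 TPM for mt-Nd5, and 748 and 966 TPM for mt-Nd6. As listed, the groups of numbers overlapped for mt-Co3, a complex IV subunit, at 856 and 940 TPM, and for mt-Nd4l at 973 and 1340 TPM. Both have nuclear copies, and with these added they did not overlap, as described below. In mt-Nd3 alone the libraries numbered 1 were above all others, at 2560 against 1950 TPM, as for 6.98% of all genes. Of the 89 nuclear members, 17 were above all others in the libraries numbered 1 and 3 were below. The labels name no batch, and what the numbers stand for was not tested.

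Among the 13, mt-Atp8 had the highest listed level at 6540 TPM and mt-Co1 followed at 4820 TPM, with overlapping ranges. They were followed by mt-Cytb at 2360, mt-Nd1 at 2270 and mt-Nd3 at 2150 TPM. The lowest were mt-Nd6 at 893, mt-Nd5 at 735 and mt-Co2 at 322 TPM. This order depends on how reads were split with the nuclear copies described below. Summed with its copy, mt-Co2 had group means of 5680, 5310 and 5130 TPM in Control, LDL and oxLDL. In the same order, mt-Atp6 had 5410, 4920 and 4980 TPM with its copy, and mt-Co3 5390, 4980 and 4850 TPM. mt-Co1 as listed had 4990, 4830 and 4640 TPM. The 13 genes are transcribed together from few promoters, and some overlap. mt-Atp8 and mt-Atp6 share 43 bases on the same strand, mt-Nd4l and mt-Nd4 share 7, and mt-Nd5 and mt-Nd6 share 14 on opposite strands. The kit does not mark strand, so reads from shared bases cannot be told apart.

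The low listed level of mt-Co2, the complex IV subunit that receives electrons from cytochrome c, came with a near-identical nuclear copy. In the GENCODE M21 transcripts (GRCm38), 5 mitochondrial mRNAs have a copy of their full length on chromosome 1, between 24612407 and 24615565 on the minus strand, annotated as unprocessed pseudogenes. All compared bases are the same for mt-Co2 and Gm28661 (681 of 681), mt-Atp6 and Gm10925 (678 of 678), mt-Co3 and Gm28437 (783 of 783) and mt-Nd4l and Gm10222 (294 of 294). The pair mt-Nd3 and Gm28438 has 344 of 345 in common, with the 1 substitution T3C counted from the first base of mt-Nd3. Of 100-base windows, 97.6 to 99.9% of those of each of the 5 mRNAs also occur in the copy. The first 60 bases of the mt-Co2 pair are shown because both genes carry the same letters.
mt-Co2, chrM:7013-7072, plus strand: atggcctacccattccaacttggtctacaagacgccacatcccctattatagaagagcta
Gm28661, chr1:24615506-24615565, minus strand: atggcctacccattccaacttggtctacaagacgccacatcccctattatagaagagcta
The mt-Nd3 pair is shown for the 1 base that differs, in capitals.
mt-Nd3, chrM:9459-9490, plus strand: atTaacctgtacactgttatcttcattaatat
Gm28438, chr1:24613088-24613119, minus strand: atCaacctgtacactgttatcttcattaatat

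Where the pairs share all or nearly all windows, the split of the level between the 2 genes is an estimate of the authors' quantification. mt-Co2 was listed at 19.3, 597 and 651 TPM in Control, 19, 363 and 527 TPM with LDL, and 0, 429 and 289 TPM with oxLDL. It was thus at or under 19.3 TPM in the libraries numbered 1 and at 289 TPM or more in the others, and a listed 0 can be a failed estimate. Gm28661 was listed at 4353, 6219 and 5195 TPM in Control, 4384, 5131 and 5496 TPM with LDL, and 3740, 4486 and 6456 TPM with oxLDL. mt-Co2 held 0 to 11.1% of the pair, and the sum of the pair ran from 3740 to 6816 TPM. The differences of -2.00 log2 units for oxLDL against Control (95% interval -7.45 to 3.45) and -1.65 for oxLDL against LDL (95% interval -7.10 to 3.8) turn on the listed 0.

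The mt-Nd3 pair was split the other way. Gm28438 was listed at 0 in the 3 libraries numbered 1 and at 815 to 1247 TPM in the other 6, where mt-Nd3 held 60.4 to 73.1% of the pair. The sum of the mt-Nd3 pair was 2616, 3152 and 3419 TPM in Control, 2611, 2670 and 2699 TPM with LDL, and 2458, 3030 and 2609 TPM with oxLDL. In the sum, the libraries numbered 1 were no longer above the others. The sum of the mt-Co3 pair was 4046, 4143 and 3618 TPM in the libraries numbered 1 of Control, LDL and oxLDL, and 4899 to 6120 TPM in the others. For the mt-Nd4l pair it was 1249, 1189 and 1082 TPM, and 1290 to 1889 TPM in the others. Both sums were thus lower in all libraries numbered 1. mt-Atp6 held 11.8 to 24.5% of its pair, mt-Co3 13.7 to 28.2% and mt-Nd4l 71.5 to 100%. The 5 copies together made up 0.923 to 1.8% of all transcripts, and adding them to the 13 mRNAs raised the mitochondrial share from 1.69 to 3.2% to 2.61 to 4.99%.

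**Figure D5:**
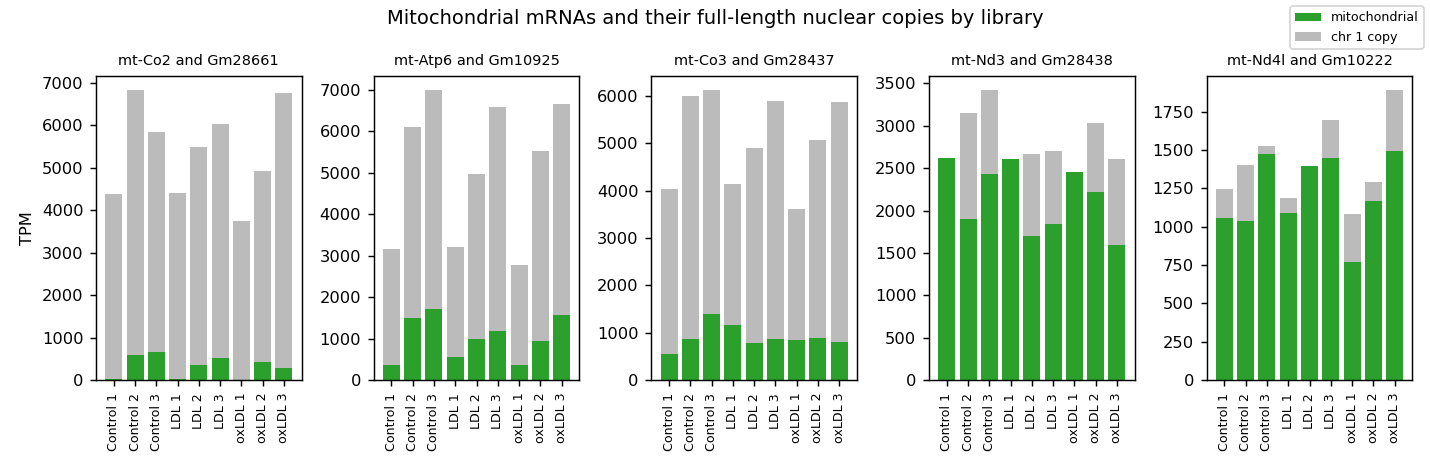
TPM of 5 mitochondrial mRNAs (green) and their full-length copies on chromosome 1 (grey), stacked for each library, with 1 panel per pair. mt-Co2 holds 0 to 11.1% of its pair, and the copy of mt-Nd3 is at 0 in the 3 libraries numbered 1.

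The lower level in the libraries numbered 1 was also present in the 5 mitochondrial mRNAs that share no 100-base window with another annotated transcript, mt-Atp8, mt-Cytb, mt-Nd1, mt-Nd5 and mt-Nd6. They summed to 9614, 14281 and 16055 TPM in Control, 9319, 12514 and 15377 TPM with LDL, and 8069, 13306 and 16690 TPM with oxLDL. The highest of these sums was 2.07 times the lowest. The remaining mRNAs share part of their length, at 60.8% of windows for mt-Nd4, 30.8% for mt-Co1 and 3.19% for mt-Nd2.

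Among other genes of mitochondrial energy metabolism, 1 passed the test with all libraries in the fit. Ucp2, an inner-membrane carrier of the uncoupling protein family, rose with LDL. It had 16.2, 16.6 and 15.9 TPM in Control, 44.5, 36.5 and 44 TPM with LDL, and 22.4, 14.9 and 27.4 TPM with oxLDL. Every LDL library lay above all others, and the oxLDL libraries overlapped with Control. The difference for LDL against Control was 1.3 log2 units (95% interval 0.88 to 1.72, limma adjusted p = 0.026), 2.56-fold. The size held between 1.25 and 1.39 without any 1 library, but the call did not. The adjusted p was 0.097 to 0.17 without any 1 LDL or Control library and 0.057 without oxLDL library 1, and it was 0.44 without the libraries numbered 1. oxLDL differed by 0.34 from Control (limma adjusted p = 1) and by -0.96 from LDL (limma adjusted p = 0.24). It was the 1 call among 8 tested carriers, of 11 listed, in any of the 3 comparisons. The main nucleotide carrier, Slc25a5, had 759 ± 44.5, 798 ± 30 and 804 ± 57.9 TPM in Control, LDL and oxLDL.

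None of the other lists held a gene called by limma in any comparison, where the shares of all genes called were 0.333, 0.0148 and 0.104%. The electron carriers and coenzyme Q synthesis genes, 20 tested of 21 and among them the complex III subunit Cyc1 that the prefixes leave out, had a median of 0.05 log2 units between LDL and Control, 0.02 between oxLDL and Control and 0.00 between oxLDL and LDL. Unadjusted, 3, 1 and 1 of the 20 had a limma p under 0.05, against 6.65, 3.86 and 3.91% of all genes tested. Etfdh, which feeds electrons from fatty acid oxidation into coenzyme Q, had the smallest p of that list for LDL. Its level was 35.7, 33.3 and 33 TPM in Control, 39.4, 41.2 and 43.1 TPM with LDL, and 37.3, 35.4 and 37.2 TPM with oxLDL. The LDL libraries were above all others, by 0.27 log2 units over Control (95% interval 0.12 to 0.42, limma adjusted p = 0.23). Sqrdl, which passes electrons from hydrogen sulphide to coenzyme Q, had 36.5, 44.4 and 40.6 TPM in Control, 46.4, 49.6 and 59.9 TPM with LDL, and 47.5, 58.2 and 53.4 TPM with oxLDL. Both lipoprotein groups lay above Control, by 0.35 and 0.38 log2 units (limma adjusted p = 0.5 and 1).

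The 41 assembly factors outside the prefixes had medians of 0.03, 0.00 and -0.03 log2 units in the same order. Unadjusted limma p was under 0.05 for 1, 1 and 1 of them, against 6.65, 3.86 and 3.91% of all genes. The same shares stand beside the counts of the lists that follow. Lyrm7, a complex III assembly factor, had the smallest p of that list for LDL, at 1.57 ± 0.59 TPM in Control and 3.07 ± 1.19 TPM with LDL, with overlapping groups. Uqcc1, another complex III assembly factor, had 26.8, 26.7 and 31.8 TPM in Control and 33.7, 35.5 and 33.7 TPM with oxLDL, a difference of 0.27 log2 units (limma adjusted p = 1). The 78 mitochondrial ribosome genes had medians of 0.00, -0.03 and -0.01 log2 units. In each comparison 77 of them had their 95% interval within 0.5 log2 units of no change, against 68.4, 71.1 and 71.4% of all genes. Unadjusted p was under 0.05 for 0, 1 and 0. For the 13 genes of the tricarboxylic acid cycle the medians were 0.00, 0.03 and -0.02, all 13 had their interval within that bound in each comparison, and 0 had an unadjusted p under 0.05. Of 21 genes of mitochondrial biogenesis and transcription 19 were tested, with medians of -0.02, 0.04 and 0.04 and 0 at an unadjusted p under 0.05. Polg had the smallest p of that list for LDL, at 34.7 ± 3.41 TPM in Control and 30.6 ± 2.69 TPM with LDL (limma adjusted p = 0.95). All its LDL libraries lay narrowly below Control. Tfam, which packages and helps to transcribe the mitochondrial genome, had 43.2, 48.7 and 54.9 TPM in Control, 32.9, 49.5 and 44.9 TPM with LDL, and 36.1, 47.7 and 49 TPM with oxLDL. Its libraries numbered 1 were the lowest of each group, and the groups overlapped.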

How the data were processed

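RNA from 9 libraries, 3 each of Control, LDL and oxLDL, was read in pairs from amplified cDNA by an unstranded kit, per the labels' protocols. The authors deposited TPM for 51810 genes. RSEM 1.3.1, STAR (no version) and the build mm10 are named per the submitters' processing notes, and no source used here gives the annotation. TPM keeps no depth. All 9 columns of values were used and 0 were left out.

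The scale was log2(TPM + 1), the pseudocount being 1. The 13495 genes averaging 1 TPM or more were kept and 38315 left out. The test was that of limma 3.58.1 (R 4.3.3) with a mean-dependent prior, on all 9 libraries together (6 residual degrees of freedom), two-sided, with Benjamini-Hochberg adjustment over all genes tested and a threshold of 0.05. Every adjusted p is limma's. The fit was tested on simulated data. The members and lists were chosen with earlier results of these data known.

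The titles number the replicates. For the 9 pairs of like-numbered libraries, deviations from the group means had correlations of 0.172 to 0.497, against -0.309 to 0.13 for the 18 other pairs. The numbers were therefore taken to pair the samples, although the labels state no shared culture. The fit with a block for the number, with 4 residual degrees of freedom, is given where it changes a call and for some unadjusted counts. All intervals come from the fit without the block.

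By rule, genes were named when called, when among the members with the lowest adjusted p of their complex, when mitochondrial, of complex II or a paired form, when highest or lowest in a complex, and when among the lowest in adjusted p in a pathway list. Some genes of the pathway lists that met the rule are not named. Genes whose groups did not overlap, the neighbours of Ndufa6, and Cox7a2l were named after their values were seen. A further neighbour is not reported here. Copies of mitochondrial mRNAs were found by shared 100-base windows in the GENCODE M21 transcripts (GRCm38), which may differ from the authors' annotation. Promoters came from RefSeq (GRCm38.p6), which held 74 of 93 nuclear members.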

Additional observations from a re-analysis of the deposited data

How the results depend on the processing

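The count of called nuclear members was 0 in each comparison and became, with the replicate block, 1 for LDL versus Control and 1 for oxLDL versus LDL, Ndufa6 in both, with limma adjusted p of 0.019 and 0.029. The block changed no other call among the members. The other settings were pseudocounts of 0.1 and 5, no filter and a minimum of 5 TPM, median-ratio and quantile scaling, rescaling without the mt- symbols, the 6 compared libraries alone, no trend, and leaving out each library. They gave 0 called members, as did leaving out the libraries of 1 number or adding the full-length nuclear copies, which were chosen after seeing the data. The median difference of nuclear members ranged from -0.03 to 0.03, -0.07 to -0.01 and -0.06 to 0.00 over all settings. That of mitochondrial members ranged from -0.26 to 0.14, -0.34 to 0.17 and -0.32 to 0.20. In both comparisons with Control, the ends of the mitochondrial range came from fits without 1 library, which leave the library numbers unequal between groups. With the block, the mitochondrial medians without the libraries numbered 1, 2 or 3 were -0.11, -0.02 and -0.10 for LDL versus Control. For oxLDL versus Control they were -0.07, -0.06 and -0.21, and for oxLDL versus LDL 0.03, -0.04 and -0.15. Rescaling without the mt- symbols gives no value for those genes, and it kept their copies on chromosome 1. Over the tested members and 7 pathway genes, 6788 of 7488 differences under another setting kept their direction and their side of the threshold. Of the rest, 687 had another sign with no call on either side, 2 newly passed the threshold (Ndufa6), 11 no longer passed it (Ucp2 for LDL versus Control) and 0 reversed as calls. For Ucp2 the adjusted p without filter was 0.093, and the call was also lost without any 1 Control or LDL library, without oxLDL library 1, without the libraries numbered 1, and in the block fit without number 1 or number 3. The depth behind TPM is unknown, and 3 libraries a group limit the precision.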
